A study of Mus musculus with 23 samples.

Results

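The data described here are the noncoding RNA table of synaptic compartments that had been depolarised with KCl, set against unstimulated compartments. The table held 26691 gene rows, all of which were kept, of 48709 gene rows in the total RNA table of the same libraries, and 14849 of the 26691 had at least 1 count. Hippocampal neurons were taken from CD1 mouse embryos at embryonic day 17 and grown for 14 days in vitro in PDMS microfluidic chambers (2 pooled for each library), in which neurites form synapses in a narrow channel that can be cut out. Chambers of the KCl group received 50 mM KCl for 2 h (3 libraries, KCL1, KCL1a and KCL4), and those of the control group received no stimulation (8 libraries, C1, C2, C3, C9, C11, Ctrl3, Ctrl4 and sc3). These 11 of the 23 samples of the series were total RNA libraries made from very little RNA with a random-primed, stranded kit, and no label says whether libraries of a group came from separate cultures (the titles of KCL1 and KCL1a share a number), so the p-values measure only the spread between these libraries, which may be technical. The purpose of the comparison was to learn which RNAs at the synapse follow neuronal stimulation.

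Noncoding RNAs in such a table differ widely in how they are made and what they do. Long noncoding RNAs such as Malat1 and Meg3 are transcribed by RNA polymerase II and act largely in the nucleus, whereas Y RNAs, 7SL RNA and the RNA parts of RNase P and RNase MRP are short, highly structured RNAs of polymerase III that work inside protein complexes. Spliceosomal small nuclear RNAs (snRNAs) such as U1 recognise splice sites, and the mitochondrial ribosomal RNAs reach synapses with the mitochondria that lie there.

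The gene of smallest p was a U1 snRNA, Gm22513, and its sequence is given first because it has near copies to which its reads could also belong. Gm22513 lies at chr12:54696782-54696945 on the plus strand (GRCm38), a single exon of 164 bases in GENCODE vM21 that overlaps no other annotated gene, and all sequences printed are of that genome and annotation. It is 1 of 7 copies between 54696782 and 54738622, and 10 annotated snRNAs differed from it by 1 or 2 bases and a further 11 by 3 to 7. Capitals mark the 4 positions at which any of the 10 nearest copies differed from Gm22513 and, in the copies, the bases that differed, with positions counted from 1 at the 5′ end. The 3 copies printed are those of the 10 that had any count in the noncoding table, and they carried C60T (Gm25679 and Gm26444) or A26G with C60T (Gm24305).
Gm22513: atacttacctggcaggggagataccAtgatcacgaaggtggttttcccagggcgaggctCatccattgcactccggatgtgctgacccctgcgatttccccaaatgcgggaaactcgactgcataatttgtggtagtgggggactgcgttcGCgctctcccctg
Gm25679: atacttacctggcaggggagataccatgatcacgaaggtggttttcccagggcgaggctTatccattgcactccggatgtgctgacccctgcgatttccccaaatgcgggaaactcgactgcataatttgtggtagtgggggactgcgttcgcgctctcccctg
Gm26444: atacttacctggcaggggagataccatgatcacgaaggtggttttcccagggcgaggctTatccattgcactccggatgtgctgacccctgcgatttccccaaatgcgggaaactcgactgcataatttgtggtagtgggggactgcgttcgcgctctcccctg
Gm24305: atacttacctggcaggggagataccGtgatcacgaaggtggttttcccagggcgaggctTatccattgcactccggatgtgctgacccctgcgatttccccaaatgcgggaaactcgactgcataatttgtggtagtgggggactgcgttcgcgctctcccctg

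The Y RNAs Rny1 (chr6:47788069-47788180, minus strand) and Rny3 (chr6:47781624-47781725, plus strand) are shown because they had the smallest unadjusted p-values after Gm22513 among genes higher in KCl. Capitals mark the longest run of bases, 12, that both share.
Rny1: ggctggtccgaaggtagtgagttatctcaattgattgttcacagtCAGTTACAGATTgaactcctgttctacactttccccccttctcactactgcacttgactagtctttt
Rny3: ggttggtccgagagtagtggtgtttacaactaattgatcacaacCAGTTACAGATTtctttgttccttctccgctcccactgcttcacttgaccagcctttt

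Several features of the libraries bear on every value below. The table's counts summed to 880327, 1284689 and 19991899 in KCL1, KCL1a and KCL4 and to between 351364 and 1683236 in the controls. KCL4 was thus by far the deepest in the noncoding table. In the total RNA table KCL4 held 80883504 counts and sc3 48281227, against 722529 to 4800303 in the other libraries. Of 10 stimulation-induced coding genes checked in the total RNA table, Fos, Npas4 and Nr4a1 were higher in all 3 KCl libraries than in any control (0.244% of genes with a count in that table were), with Fos at 277, 109 and 249.8 CPM (counts scaled to a library total of 1000000) in KCl libraries against 12.5 to 59.7 CPM in controls. Others went the other way in part, with Nptx2 at 141, 21.7 and 20.3 CPM in KCL1, KCL1a and KCL4 against a control median of 111 CPM, and Bdnf at 6.84 CPM in KCL1a, below every control. Neuronal markers (8 of 8 counted in every library) summed to between 1834 and 4542 CPM in KCl libraries and between 704 and 5818 CPM in controls, and astrocyte markers (8 of 8 likewise) to between 1409 and 2867 CPM in KCl libraries and between 804 and 15752 CPM in controls (4204 CPM at most without sc3). The control library sc3 stood apart, with the highest astrocyte sum, a Malat1 share of 30.4% and the smallest excess over introns, and the main results that rest on it are given with and without it.

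The noncoding table held far more counts than the total RNA table for genes with long introns. For genes with introns of 100 kb or more in sum, its counts were 23.4, 31.7 and 13.5 times those of the total RNA table in KCL1, KCL1a and KCL4 and between 3.41 (sc3) and 36.6 (C3) times in the controls. These genes took 10.9%, 18.0% and 5.20% of the table in the KCl libraries and between 6.84% and 32.5% in the controls. The share was highest in Ctrl4, Ctrl3 and C3, the 3 controls in which gene models on satellite repeats were also highest in the total RNA table (up to 88365 CPM in Ctrl4, against between 6143 and 57605 CPM in KCl libraries). Their part in the results below was not tested.

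Counts fell mostly into long noncoding RNAs and mitochondrial rRNA, and both varied widely within the controls. The 2 mitochondrial rRNA genes took 44.7%, 41.5% and 71.1% of the counts in KCL1, KCL1a and KCL4, against 1.13% to 44.6% (median 23.8%) in the controls. Long intergenic noncoding RNAs (lincRNAs, 3960 genes) took 26.6%, 32.0% and 17.2% in the KCl libraries, against 31.6% to 54.6% (median 44.1%) in the controls. All KCl libraries were thus at the upper end for mitochondrial rRNA and at the lower end for lincRNAs, but C2 and C11 exceeded KCL1a for mitochondrial rRNA and C2 lay below KCL1a for lincRNAs. In bulk RNA, a change in the number of mitochondria or neurites and a change in the RNA of each cannot be told apart.

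By an exact two-sided permutation test, in which 3 against 8 libraries can reach a p of 0.0121, the mean share differed by 29.4 percentage points for mitochondrial rRNA (52.4 ± 16.3% in KCl and 23.0 ± 18.2% in control, SD, n = 3 and 8; p = 0.0485). For lincRNAs the difference was -18.2 points (25.3 ± 7.52% in KCl and 43.4 ± 9.91% in control; exact p = 0.0242). Adjusted over the 40 types with a count, neither passed (Benjamini-Hochberg adjusted exact p = 0.441 for each). A single type at the smallest reachable p of 0.0121 would not have passed this adjustment either. Shares of 1 total are bound to each other, and with mitochondrial and ribosomal RNA left out of the total, lincRNAs took 56.4 ± 4.85% in KCl and 57.9 ± 4.14% in control libraries (exact permutation p = 0.606).

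**Figure D1:**
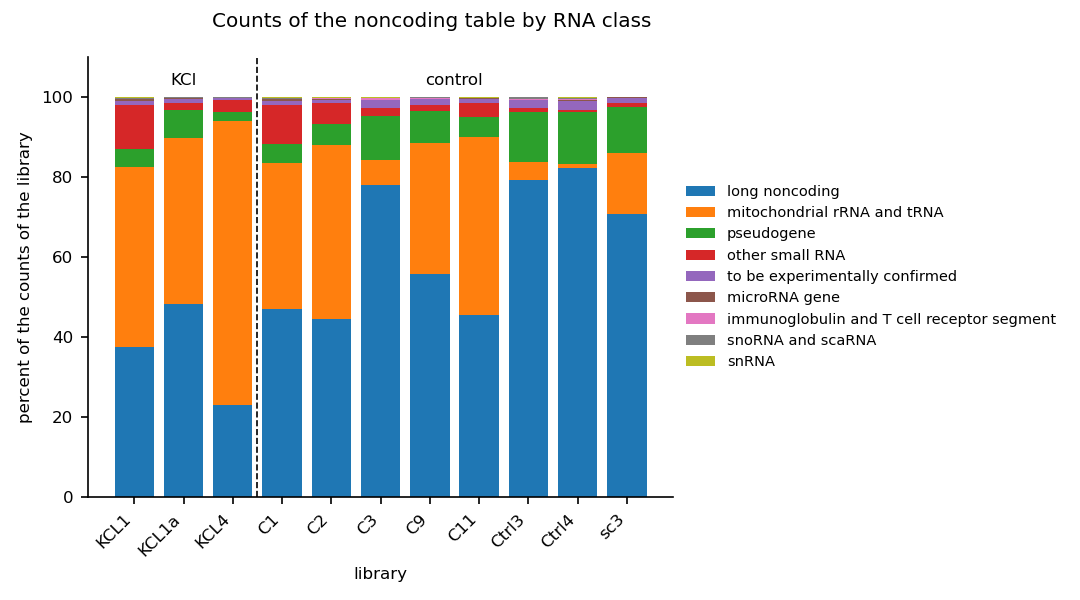
Percent of the noncoding table's counts (y axis) in 9 classes of RNA for each library (x axis), KCl libraries left of the dashed line and controls right of it. Mitochondrial rRNA and tRNA took between 41.5% and 71.2% in KCl libraries and between 1.13% and 44.7% in controls, where C1, C2, C9 and C11 were closest to the KCl libraries.

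The difference in mitochondrial share depended on which controls were taken. Controls had either a bare number as title (C1, C2, C3, C9 and C11) or a title with letters (Ctrl3, Ctrl4 and sc3), as all KCl libraries had, and the labels do not say what this marks. Against the 3 lettered controls, at 4.36%, 1.13% and 15.3% for mitochondrial rRNA and tRNA together, the KCl libraries lay wholly above, by 45.6 points (exact permutation p = 0.1, the smallest that 3 against 3 allows). Against the 5 bare-number controls they overlapped, with a difference of 19.8 points (exact permutation p = 0.143).

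Among the smaller types, antisense RNAs, which are transcribed from the strand opposite to another gene, took 5.37%, 8.06% and 2.62% in the KCl libraries and 5.10% to 14.7% (median 7.71%) in the controls. Processed transcripts, spliced noncoding RNAs of no further class and home to Sox2ot and Rian, took 5.14%, 7.56% and 2.89% in the KCl libraries against 5.72% to 13.05% (median 9.33%) in the controls. The miscellaneous type with the Y and 7SL RNAs took 6.09%, 0.877% and 0.684% in KCL1, KCL1a and KCL4 and 0.0119% to 4.09% (median 0.660%) in the controls, so KCL1 alone was above every control. Pseudogenes, inactive copies of genes, took 4.67%, 6.86% and 2.30% in KCl libraries against 4.63% to 13.1% (median 9.55%) in controls. Pseudogenes of immunoglobulin and T cell receptor segments are not among them and were classed with those segments. No type or class passed adjustment, and the smallest adjusted exact p was 0.182 over the 9 classes and 0.441 over the 40 types. With 3 KCl libraries, a single type or class at the smallest reachable exact p could not have passed.

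Small nuclear and nucleolar RNAs and the genes of microRNAs were minor in all libraries. Loci of microRNAs took 0.376%, 0.132% and 0.136% in KCl libraries and 0.0477% to 0.423% (median 0.179%) in controls, which in total RNA libraries counts precursors and host transcripts rather than mature microRNAs. For small nucleolar RNAs (snoRNAs), which guide the modification of ribosomal RNA, the shares were 0.123%, 0.110% and 0.0521% in KCl libraries and 0.0363% to 0.258% (median 0.142%) in controls. For snRNAs they were 0.341%, 0.0987% and 0.0690% in KCl libraries and 0.0246% to 0.248% (median 0.151%) in controls, so that the type as a whole overlapped although 1 of its genes did not.

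The number of noncoding genes found was compared at the depth of the shallowest library, 351364 counts. At that depth the expected number of genes with a count was 7132, 5764 and 6670 in KCL1, KCL1a and KCL4, against between 4930 (sc3) and 11871 (Ctrl4) in the controls. The KCl libraries therefore lay inside the range of the controls (6522 ± 696 in KCl and 7714 ± 2531 in control, SD, n = 3 and 8; exact two-sided permutation p = 0.558). Ctrl4, C3 and C9 had the most genes among the controls. None of the 9 classes passed this test on its own (exact p between 0.461 and 0.788).

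In the test of single genes, 7583 genes were frequent enough to be fitted, and 1 of them was called higher in KCl libraries (0.0132% of tested genes) and 5 lower (0.0659%; 0.0791% in both directions), by edgeR's quasi-likelihood test with a Benjamini-Hochberg adjusted p up to 0.05 and a log2 fold change beyond 1. The table's total set the library size, and on this scale the median log2 fold change of all tested genes was -0.97 (-0.15 with TMM scaling), so that fold changes of main genes are also given relative to it. Unadjusted, 4 genes had p under 0.05 on the higher side (0.0527%) and 425 on the lower side (5.6%). This imbalance depended on the scaling, with 30 higher and 157 lower under TMM, 91 and 292 under DESeq2, and 180 and 169 under TMM without sc3, but 20 (0.28%) and 848 (11.9%) on the table's total without sc3. Without sc3, 1 of 7154 tested genes was called higher (0.014%) and 0 lower, and the same 1 gene was called without sc3 and KCL4. Without KCL1, 0 genes were called, and with TMM scaling without sc3 10 were called higher (0.14%) and 0 lower. The biological coefficient of variation between libraries was 1.26.

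Gm22513 was the gene called higher. It had 328, 65 and 1894 counts in KCL1, KCL1a and KCL4, against 0, 2, 1, 0, 2, 0, 6 and 0 counts in C1, C2, C3, C9, C11, Ctrl3, Ctrl4 and sc3. As levels these were 373, 50.6 and 94.7 CPM in KCL1, KCL1a and KCL4, against 0 to 14.5 CPM in the controls with a median of 0.408 CPM. No control reached the lowest KCl library, and Gm22513 was 1 of 2 tested genes (0.0264%) of which all KCl libraries lay above all controls. edgeR gave a log2 fold change of 6.59 ± 1.10 (SE; 7.56 relative to the median gene, adjusted p = 1.41e-05).

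In the noncoding table, the reads of this family in the KCl libraries were almost all counted at Gm22513 itself. In the controls, 141 of the family's 153 counts there lay at copies 3 to 7 bases away. The 10 copies that differ by 1 or 2 bases had 7, 0 and 21 counts together in KCL1, KCL1a and KCL4 and 1 count in all controls together, so that Gm22513 and these copies summed to 335, 65 and 1915 counts in the KCl libraries against 0 to 6 in the controls. The 11 copies 3 to 7 bases away were at 12.5, 2.34 and 4.90 CPM in KCL1, KCL1a and KCL4, against 0 to 47.8 CPM (median 8.56) in the controls. The total RNA table had the same counts for Gm22513 and more for its nearest copies, with 74 of the family's 249 counts in the controls at these. There the sum of Gm22513 and the 10 nearest copies was 127, 24.7 and 26.1 CPM in the KCl libraries against 0 to 13.8 CPM in the controls. All 22 copies summed to 393, 52.9 and 101 CPM in the KCl libraries against 0 to 47.8 CPM in the controls in the noncoding table. In the total RNA table the groups overlapped, at 132, 35.7 and 27.5 CPM in the KCl libraries against 0.352 to 31.8 CPM in the controls. How the counting treated reads that fit several copies is not given in the sources used here, so which of the near copies the reads came from is uncertain.

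**Figure D2:**
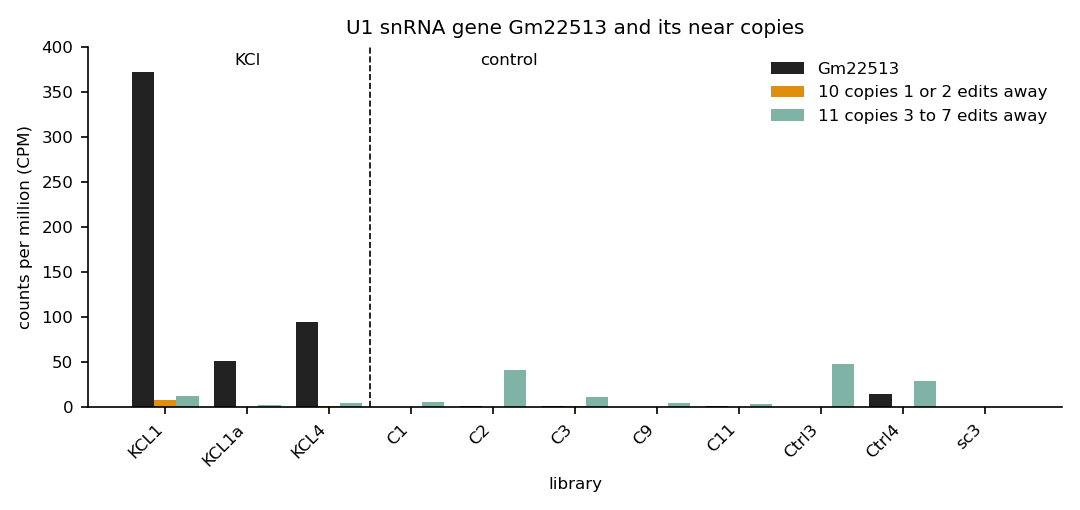
Level in CPM of the noncoding table (y axis) in each library (x axis) for Gm22513, for the 10 U1 copies 1 or 2 edits from it and for the 11 copies 3 to 7 edits from it; KCl libraries are left of the dashed line. Gm22513 was at 373, 50.6 and 94.7 CPM in KCl libraries and at most 14.5 CPM in a control, while the more distant copies were highest in the controls Ctrl3 and C2.

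The call of Gm22513 held in 20 of 27 other settings of the fit, and its log2 fold change stayed between 5.15 and 8.11 in all of them. It was lost in the other 7, among them without KCL1 (edgeR adjusted p = 0.685), against the lettered controls alone (0.432), with a term for the kind of title (0.0987), with median-of-ratios scaling (0.0871), with the total of the total RNA table as library size (0.619) and with the counts of that table (0.391). Without sc3 its adjusted p was 2.64e-09.

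The 5 genes called lower were all processed pseudogenes, intronless copies of messenger RNAs, and all rested on the control library sc3. Gm12892 (chr4:122008193-122009338) had 22.7, 2.34 and 22.3 CPM in the KCl libraries, against 7199 CPM in sc3 and 0 to 51.2 CPM in the other 7 controls. Gm4735 (chr2:80837141-80838442) had 0, 0 and 13.7 CPM in the KCl libraries, against 3311 CPM in sc3 and 0 to 20.8 CPM in the others. Gm5514, Gm13493 and Gm3375 showed the same, with 0 to 17.9 CPM in KCl libraries, against 2932, 1276 and 1890 CPM in sc3 and at most 45.5 CPM in any other control. The edgeR log2 fold changes of the 5 were between -6.31 and -5.06 (adjusted p between 3.68e-04 and 0.0144). Without sc3 none of them was called: Gm4735 and Gm13493 no longer passed the filter on low counts, and the other 3 had log2 fold changes between -0.67 and -0.34, at adjusted p of 0.860 or more.

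Gm1821 (chr14:46084028-46085000), another processed pseudogene and the next gene on the lower side, changed sign without sc3. It had 84.1, 77.1 and 189.7 CPM in the KCl libraries, against 12847 CPM in sc3 and 4.82 to 69.1 CPM in the other controls. Every KCl library thus exceeded the 7 other controls, as in 8 of the tested genes (0.105%), while in 224 (2.95%) every KCl library lay below those 7. The edgeR log2 fold change was -3.79 ± 0.97 with sc3 (adjusted p = 0.0938) and 2.66 without it (adjusted p = 0.386). With TMM scaling without sc3, an alternative chosen after seeing the data, Gm1821 was called higher (4.48, edgeR adjusted p = 0.00259), and with a term for the kind of title it was called lower (-5.20, adjusted p = 0.00122). Which gene a processed pseudogene's reads come from is uncertain, because its spliced parent can share them.

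**Figure D3:**
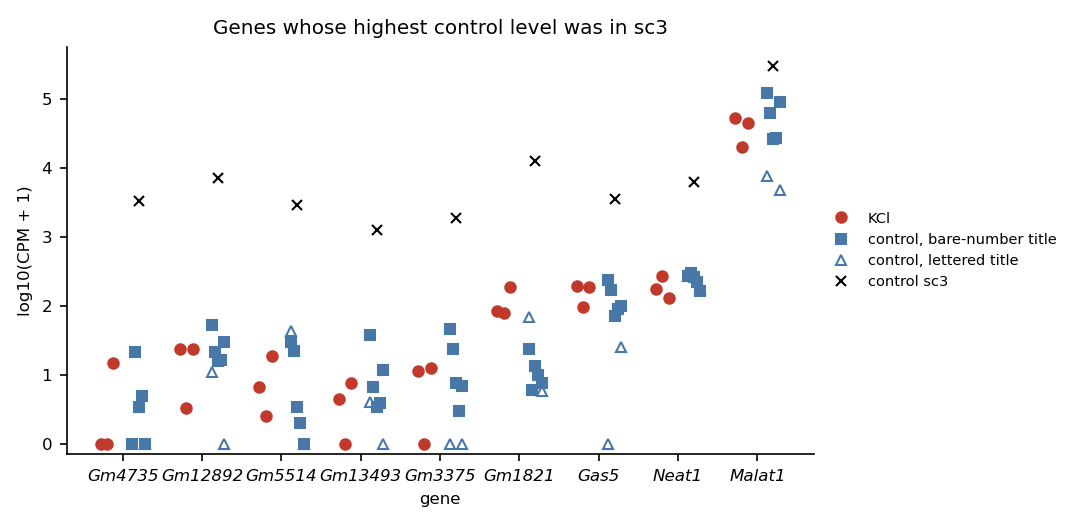
Level as log10(CPM + 1) (y axis) of 9 genes (x axis) in every library: KCl libraries as filled circles on the left of each gene, controls on the right as squares (bare-number controls), open triangles (Ctrl3 and Ctrl4) and a cross (sc3). The cross lies above every other point in all 9 genes, for Gm12892 at 7199 CPM against at most 51.2 CPM in any other control.

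The tested RNAs of polymerase III and ribonucleoproteins all had log2 fold changes above 0, and none passed the test. Whole types of short RNA did not share a direction, with medians of -0.44 for 51 miscellaneous RNAs, -2.41 for 52 snoRNAs and 0.17 for 39 snRNAs. The median over all tested genes was -0.97. Rny1, a Y RNA that binds the Ro protein, had 5293, 903 and 390.4 CPM in KCL1, KCL1a and KCL4, against 16.9 to 1770 CPM in the controls with a median of 497 CPM. Only KCL1 exceeded every control, while KCL1a and KCL4 lay among the bare-number controls and above all 3 lettered ones. edgeR gave a log2 fold change of 1.82 ± 0.71 (SE; p = 0.0105, adjusted p = 0.705).

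Rny3, the other Y RNA, had 23676, 4850 and 2062 CPM in the KCl libraries, against 3.89 to 9500 CPM in the controls with a median of 2558 CPM, and again KCL1 alone exceeded every control. Its log2 fold change of 1.53 ± 0.70 had an adjusted p of 0.796 by edgeR. Rn7s2 (chr12:69361182-69361481), a gene of the 7SL RNA of the signal recognition particle, had 30380, 2005 and 3310 CPM in the KCl libraries, against 3.89 to 27476 CPM in the controls with a median of 2340 CPM. Here C1 was close to KCL1, and the other KCl libraries lay near the control median (edgeR log2 fold change of 0.94 ± 0.71, adjusted p = 0.796).

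Rmrp, the RNA of RNase MRP, which cuts pre-ribosomal RNA and mitochondrial primer RNA, had 2751, 247 and 694 CPM in the KCl libraries, against 0 to 2043 CPM in the controls with a median of 253 CPM. Its edgeR log2 fold change of 1.23 ± 0.73 had an adjusted p of 0.796. The locus (chr4:43492788-43493058) lies within a lincRNA entry also named Rmrp on the same strand and overlaps Ccdc107 on the opposite one. Rpph1, the RNA of RNase P, which trims transfer RNA precursors, had 3226, 4216 and 9848 CPM in the KCl libraries and 64.6 to 7582 CPM in the controls with a median of 5304 CPM, and its lowest controls were sc3 and Ctrl4. Its log2 fold change of 0.34 ± 0.73 had an adjusted p of 0.881 by edgeR, and it shares bases with Ccnb1ip1 on the same strand.

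Rnu12, the U12 snRNA of the minor spliceosome, had 753, 20.2 and 65.8 CPM in the KCl libraries, against 0 to 242 CPM in the controls with a median of 44.6 CPM, with KCL1 the only KCl library above the highest control (edgeR log2 fold change of 1.76 ± 0.81, adjusted p = 0.796; -0.93 without KCL1). With a term for the kind of title Rnu12 was called higher (6.88, edgeR adjusted p = 0.00122). Snord118, the U8 snoRNA needed for ribosomal RNA processing, had 76.1, 0 and 11.4 CPM in the KCl libraries and 0 to 14.7 CPM in the controls with a median of 0.747 CPM, with no count in KCL1a (edgeR log2 fold change of 3.21 ± 1.66, adjusted p = 0.796). Rnu12 was also the 1 tested member of the list of spliceosomal and histone snRNAs. The last gene of the 6 with the smallest p on the higher side, ENSMUSG00000108658, an unverified gene model without a symbol in GENCODE vM21, had 10.2, 52.2 and 0.3501 CPM in the KCl libraries and 0 to 12.1 CPM in the controls with a median of 0 CPM (edgeR adjusted p = 0.796).

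As a list, small RNAs of polymerase III and of ribonucleoproteins had 7 tested members of 11, none called, with 2 at an unadjusted p under 0.05 on the higher side (0.0527% of all tested genes) and 0 on the lower (5.6%). Their median log2 fold change was 1.23, against -0.97 over all tested genes (1.04 without sc3, against -1.04). Against the lettered controls alone, 6 of the 7 lay wholly above, as did 0.475% of all tested genes. With a term for the kind of title, 4 of the 7 were called higher (Rny1, Rny3, Rn7s2 and Rmrp). Among all tested genes 0.119% were called higher there and 0.33% lower. The KCl fold change with this term also rests on the lettered controls, so the 2 results are not separate. Without KCL1 the log2 fold changes of Rny3, Rn7s2 and Rmrp were -0.032, -1.22 and -0.16, so their direction rested on that library.

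**Figure D4:**
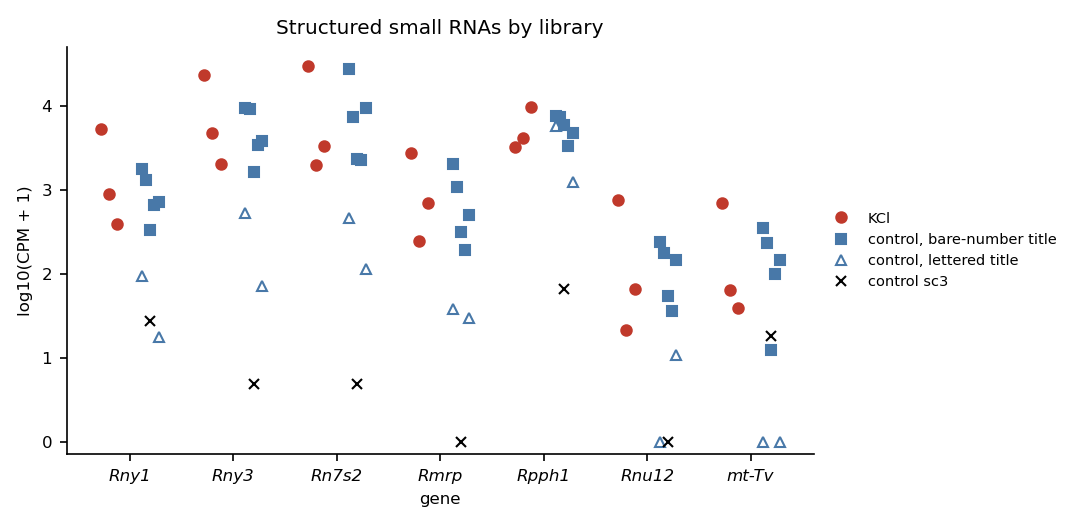
Level as log10(CPM + 1) (y axis) of 7 structured RNAs (x axis) in every library: KCl libraries as filled circles on the left of each gene, controls on the right as squares (bare-number controls), open triangles (Ctrl3 and Ctrl4) and a cross (sc3). For Rny1 the KCl libraries, at 390.4 CPM or more, lie above the triangles and the cross, with KCL1a and KCL4 among the squares and KCL1 above them.

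The mitochondrial rRNAs mt-Rnr1 and mt-Rnr2, the small and large subunit RNAs of the mitochondrial ribosome, lie on either side of a transfer RNA gene on the mitochondrial genome. mt-Rnr2 had 280705, 263387 and 441260 CPM in the KCl libraries, against 7028 to 266016 CPM in the controls with a median of 166776 CPM. mt-Rnr1 had 166622, 151225 and 269927 CPM in the KCl libraries, against 4257 to 183754 CPM in the controls with a median of 72615 CPM. C2 and C11 overlapped the KCl libraries in mt-Rnr1 and C2 in mt-Rnr2, while all lettered controls lay below them. Both were called neither higher nor lower by edgeR (log2 fold change 1.19 ± 0.70 for mt-Rnr2 and 1.19 ± 0.70 for mt-Rnr1, adjusted p = 0.796 for each). The valine transfer RNA between them, mt-Tv, had 702, 63.1 and 37.7 CPM in the KCl libraries and 0 to 353 CPM in the controls with a median of 57.6 CPM. Its edgeR log2 fold change of 1.32 ± 0.81 had an adjusted p of 0.796. With a term for the kind of title, mt-Rnr1 (3.76, edgeR adjusted p = 0.0119) and mt-Tv (5.40, adjusted p = 0.00959) were called higher. Of the 24 mitochondrial rRNAs and tRNAs 16 were tested, 10 had a log2 fold change above 0, 0 passed the test, and the median was 0.13 (0.56 without sc3).

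Cytoplasmic ribosomal sequence was present as well. CT010467.1, an rRNA model at chr17:39846353-39848827 that overlaps AY036118 on the same strand and Gm42418 on the opposite one, had 42668, 3820 and 10560 CPM in the KCl libraries, against 581 to 46476 CPM in the controls with a median of 7467 CPM. Gm26917, a lincRNA model next to it at chr17:39843013-39846341, had 22288, 7466 and 28289 CPM in the KCl libraries, against 5912 to 27467 CPM in the controls with a median of 12010 CPM. The groups overlapped in both (edgeR log2 fold changes 0.57 ± 0.72 for CT010467.1 and 0.40 ± 0.72 for Gm26917, adjusted p of 0.808 and more).

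Among long noncoding RNAs no gene was called. Malat1, a nuclear RNA of splicing speckles and the most frequent lincRNA, had 54091, 20273 and 45768 CPM in the KCl libraries, against 4862 to 303769 CPM in the controls with a median of 45496 CPM. Its lowest controls were Ctrl4 and Ctrl3 and its highest sc3, with the KCl libraries between them (edgeR log2 fold change of -1.02 ± 0.78, -0.047 relative to the median gene, adjusted p = 0.796; -0.30 without sc3). Neat1, the scaffold of nuclear paraspeckles, had 175, 266 and 128 CPM in the KCl libraries, against 163 to 296 CPM in 7 controls and 6268 CPM in sc3. Its edgeR log2 fold change of -2.39 ± 0.89 (p = 0.00748, adjusted p = 0.705) became -0.33 without sc3.

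The imprinted noncoding genes of the Dlk1-Dio3 region on chromosome 12 are strongly transcribed in neurons from the maternal allele. Meg3, the first of them, had 10238, 4220 and 12140 CPM in the KCl libraries, against 1036 to 31275 CPM in the controls with a median of 8127 CPM. Its edgeR log2 fold change of -0.37 ± 0.75 had an adjusted p of 0.875, with the groups overlapping, and was 0.038 without sc3, its highest control (the next was at 18616 CPM). Rian, a host of many snoRNAs further along, had 2151, 1275 and 3015 CPM in the KCl libraries, against 593 to 3569 CPM in the controls with a median of 1161 CPM, and its edgeR log2 fold change of 0.45 ± 0.74 had an adjusted p of 0.851. For Rian the KCl libraries lay above all 3 lettered controls, as for 6 of the 7 tested polymerase III and ribonucleoprotein RNAs, and among the bare-number ones. The list of imprinted noncoding RNAs had 8 tested members of 11, 0 called and a median log2 fold change of -0.41 (-0.20 without sc3).

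Sox2ot, which spans Sox2, the neural stem cell factor, had 1850, 2987 and 937 CPM in the KCl libraries and 1866 to 4778 CPM in the controls with a median of 2813 CPM, and Pvt1, next to Myc, had 1381, 2191 and 639.9 CPM in the KCl libraries and 1438 to 3509 CPM in the controls with a median of 2247 CPM. Gm32647, an intron-rich lincRNA model on chromosome 7 and 1 of the 10 most frequent genes, had 1385, 2987 and 559 CPM in the KCl libraries and 535 to 5126 CPM in the controls with a median of 3538 CPM. All 3 have introns of more than 100 kb in sum, and KCL1a was the highest KCl library and KCL4 the lowest in each. KCL1 and KCL4 lay below every control for Sox2ot and Pvt1, but KCL1a did not. Their edgeR log2 fold changes were -0.70, -0.79 and -1.01 for Sox2ot, Pvt1 and Gm32647 (adjusted p of 0.796 or more), against the median of -0.97 over all tested genes.

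Of the other lists, nuclear lncRNAs had 12 tested members and a median log2 fold change of -0.67, brain-enriched lncRNAs 17 and -0.70, activity-linked noncoding genes of neurons 7 and -1.02, and ribosomal protein pseudogenes 41 and -0.99. Without sc3 these medians were -0.31, -0.47, -0.30 and -0.86 in the same order, against -1.04 over all tested genes. None of their members was called in either direction, and on the lower side 1, 1, 2 and 2 of them had an unadjusted p under 0.05, beside 5.6% of all tested genes. The host genes of snoRNAs, whose introns carry the snoRNAs, had the lowest median of these lists, with 14 tested, 0 called, 7 at an unadjusted p under 0.05 on the lower side (5.6% of all tested genes) and a median of -2.07. Both values rested on sc3, without which 1 member had such a p on the lower side (11.9% of all tested genes) and the median was 0.19. Gas5, a host gene and growth-arrest RNA, had 194, 95.7 and 189 CPM in the KCl libraries, against 3550 CPM in sc3 and 0 to 233 CPM in the other controls (edgeR log2 fold change of -1.73 ± 0.88, adjusted p = 0.796; 0.72 without sc3).

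**Figure D5:**
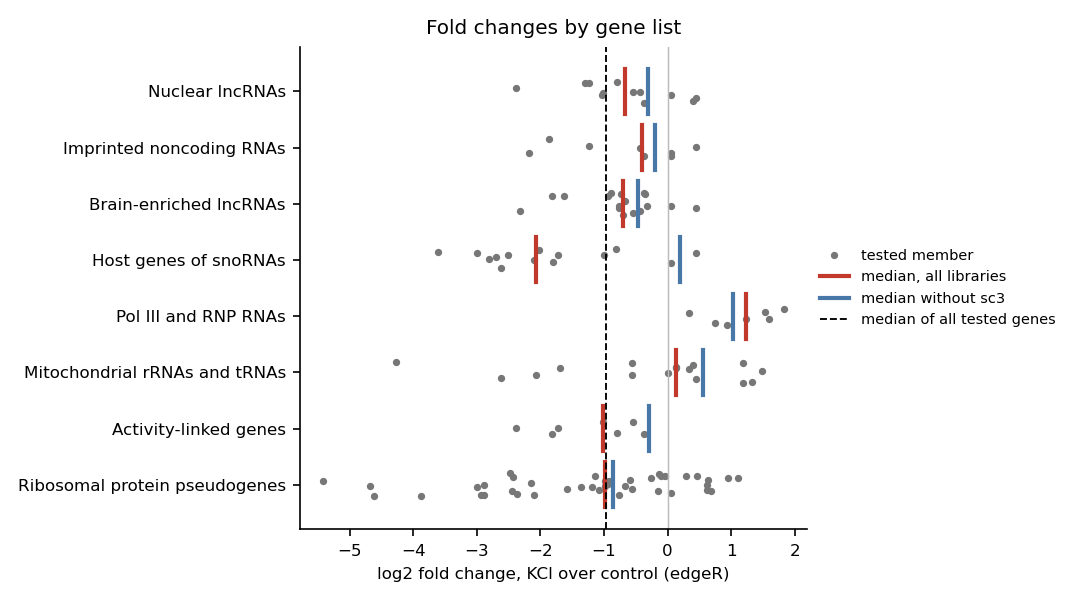
edgeR log2 fold change of KCl over control (x axis) for the tested members (points) of 8 gene lists (y axis), with the list's median over all libraries (red bar) and without sc3 (blue bar) and the median of all tested genes (dashed line at -0.97). The list of polymerase III and ribonucleoprotein RNAs has its median at 1.23, and the host genes of snoRNAs have theirs at -2.07 with sc3 and 0.19 without it.

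By type, the tested genes were mainly lincRNAs (2635 tested), processed pseudogenes (1663), antisense RNAs (881) and unprocessed pseudogenes (707). Their median log2 fold changes were -0.89, -1.30, -0.88 and -1.06, against -0.97 over all. Fewer genes of the short types were tested, with medians of 0.17 for 39 snRNAs, 0.12 for 28 microRNA loci and -2.41 for 52 snoRNAs. In the whole table all KCl libraries lay below all 8 controls in 58 tested genes (0.765%) and above them in 2, Gm22513 and the unprocessed pseudogene Gm14018, and against the lettered controls alone the counts were 561 below (7.4%) and 36 above. The second gene was named after its values were seen, and its edgeR adjusted p was 0.796.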

How the data were processed

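Total RNA libraries of the synaptic compartment were compared, 3 of KCl and 8 of control chambers. Per the submitters' processing notes and the study's methods, the authors converted base calls with bcl2fastq 2.20.2, aligned reads to mm10 with STAR 2.5.2b and deposited raw counts per gene from featureCounts 1.5.1, beside CPM values, counts scaled to a table total of 1000000. The annotation's release, the strand setting and the treatment of introns and multiply aligned reads are not given in the sources used here. The raw counts of the noncoding RNA table were analysed, and the deposited CPM columns served as a check of the scale. For 2 control columns, C1 and C11, the header gives the group but not which sample. The study's own comparisons were not used.

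The scale was the table's total in each library. Genes kept by filterByExpr were tested with the quasi-likelihood test of edgeR 4.0.16 (R 4.3.3) without covariates, with Benjamini-Hochberg adjustment over all 7583 tested genes. Shares and numbers of detected genes were compared over libraries with exact two-sided permutation tests. Alternatives were TMM and median-of-ratios scaling, other totals, DESeq2 1.42.0 without and with 1 factor of unwanted variation, other filters, a term for the kind of title, control subsets, summing of KCL1 and KCL1a, leaving out each library, and the counts of the total RNA table. The study also used DESeq2 with unwanted variance removed, by RUVSeq, but its methods do not give the number of factors. The factor here was computed from residuals of a first fit and need not match the study's. Gene types came from the file and gene names from GENCODE vM21, whose sequences and coordinates (GRCm38) are printed. Of the 26691 identifiers 26497 were found in it, and the others are named by identifier. The methods were checked on simulated data. Precision at this depth (351364 to 19991899 counts) covers counting error only, since reads without molecular identifiers are not independent molecules.

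Genes were named by rule: the 4 marking the table, the 10 of highest mean share, the called genes, or the 6 of smallest p where fewer were called in a direction, the 3 of highest share of each type and up to 4 members of each list. The lists were nuclear, imprinted, brain-enriched and activity-linked noncoding RNAs, snoRNA hosts, polymerase III and ribonucleoprotein RNAs, spliceosomal and histone snRNAs, mitochondrial RNAs and ribosomal protein pseudogenes. The members, lists and tests were chosen with earlier results of these data known. Of the genes the rule allows, those described are a selection made after the values were seen. Some items are not reported here.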

Additional observations from a re-analysis of the deposited data

Results flagged for a closer look

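In the 8 controls, the highest library lay farther from the next than Dixon's 95% critical value for 13 of 38 values tested (28 named genes, 9 class shares and the number of detected genes), where chance gives about 1 in 20. Part of these genes were named by a p-value that sc3 sets, so the count is not read against chance. The library was sc3 in 9 of the 13. Among processed pseudogenes, sc3 had 12847 CPM of Gm1821, 7199 of Gm12892, 3311 of Gm4735, 2932 of Gm5514, 1890 of Gm3375 and 1276 of Gm13493, while no other control exceeded 69.1 CPM in any of them. It also had 303769 CPM of Malat1, 6268 CPM of Neat1 and 3550 CPM of Gas5, against at most 123066, 296 and 233 CPM in the other controls.

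The control C1 stood apart for the rRNA model CT010467.1 (46476 CPM, next 22103) and for the 7SL gene Rn7s2 (27476 CPM, next 9418). The control Ctrl4 stood apart for Gm22513 (14.5 CPM from 6 counts, next 1.43) and for ENSMUSG00000108658 (12.1 CPM, next 4.90).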

How the results depend on the processing

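The mean shares of long noncoding, mitochondrial, pseudogene, unverified and immunoglobulin or T cell receptor RNA kept their direction in every alternative run. So did the numbers of detected genes. All of them also stayed on the same side of the threshold on the adjusted p, but some alternatives could not have passed it. The smallest exact permutation p within reach was 0.1 against the lettered controls and 0.333 within title numbers. Unadjusted, the exact permutation p of the mitochondrial and of the long noncoding share was 0.0485 in all libraries, 0.0667 without sc3 and 0.178 without KCL4. The count of called genes (6) was 0 with median-of-ratios scaling, with the total or the counts of the total RNA table, 1 with TMM scaling, without mitochondrial and ribosomal RNA in the total, with DESeq2, against lettered or bare-number controls alone and with KCL1 and KCL1a summed, 16 with DESeq2 and 1 factor of unwanted variation and 34 with a term for the kind of title. Leaving out 1 library gave between 0 (without KCL1) and 6 calls, with 1 without sc3 and 1 without KCL1a. In alternatives chosen after seeing the data it was 1 without sc3 and KCL4 and 10 with TMM scaling without sc3. The other filters and the adjusted p alone gave 6 or 7.

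The title numbers did not pair the libraries (correlations of deviations 0.08 for KCL1 with C1, -0.10 for KCL1a with C1 and -0.25 for KCL4 with Ctrl4). The highest correlation of a KCl with a control library was 0.39, for KCL4 with sc3, whose titles hold different numbers. With a replicate block on the title numbers 0 genes were called, and Gm22513 was at 5.15. Under this block the differences in share were -0.519 points for other small RNA, -0.106 for microRNA genes and -0.0754 for snRNA, and the log2 fold changes 0.25 for Meg3, 7.32 for Gm4735, 3.06 for Gm1821 and 0.62 for Gas5, all opposite in sign to those reported.

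Other reversed shares, none past a threshold, were -0.0189 (bare-number controls) and -0.0131 points (KCL1 and KCL1a summed) for microRNA genes, 0.0229 for snoRNA without mitochondrial and ribosomal RNA, and -0.0117 (summed) and -0.168 (counts of the total RNA table) for snRNA. Leaving out 1 library gave differences between -0.720 and 3.92 points for other small RNA, -0.0627 and 0.0593 for microRNA genes and -0.0609 and 0.0750 for snRNA.

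Reversed log2 fold changes with DESeq2 were 0.47 for Malat1, 2.01 for Gm4735, 0.69 for Gm12892, 0.91 for Gm5514, 0.32 for Gm3375, 4.10 for Gm1821, 0.18 for Sox2ot, 0.13 for Pvt1, 0.52 for Neat1 and 1.504 for Gas5. With TMM scaling without sc3 they were 0.61 for Malat1, 1.10 for Meg3, 0.86 for Gm12892, 1.07 for Gm5514, 0.48 for Gm3375, 4.48 for Gm1821, 0.18 for Sox2ot, 0.12 for Pvt1, 0.60 for Neat1 and 1.74 for Gas5. The factor of unwanted variation gave 0.46 for Meg3, 2.15 for Gm1821 and 0.71 for Gas5, and the total without mitochondrial and ribosomal RNA 0.47 for Meg3. With the total of the total RNA table Rpph1 was at -0.015 and Gas5 at 0.24, and with its counts Rpph1 was at -0.31. Against bare-number controls Rpph1 was at -0.019, Gm1821 at 3.49 and Gas5 at 0.29, and without sc3 and KCL4 Rpph1 was at -0.48, Gm1821 at 2.12 and Gas5 at 0.58. Leaving out 1 library gave values between -0.67 and 0.038 for Meg3, -0.83 and 1.25 for CT010467.1, -1.22 and 1.91 for Rn7s2, -0.032 and 2.01 for Rny3, -0.29 and 0.63 for Rpph1, -0.93 and 2.31 for Rnu12, -0.16 and 1.99 for Rmrp, -1.09 and 1.88 for mt-Tv, -4.33 and 2.66 for Gm1821 and -1.92 and 0.72 for Gas5. The cause was not tested. The 3 KCl libraries limit what the exact tests can show, and a gene at a few counts in the shallower libraries cannot be told from one at 0.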

Other observations

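Of the 8 genes whose KCl libraries all lay above the 7 controls other than sc3 (0.105% of tested genes), 2 outside the genes named so far were chosen after their values were seen. Gm15772, a processed pseudogene, had 423, 750.4 and 886 CPM in KCL1, KCL1a and KCL4, against 49.8 to 385.0 CPM in 7 controls and 2032 CPM in sc3. Snhg1, a host gene of C/D box snoRNAs, had 56.8, 53.7 and 48.5 CPM in KCL1, KCL1a and KCL4, against 8.82 to 43.7 CPM in 7 controls and 667 CPM in sc3. Neither passed the edgeR test with all libraries (adjusted p = 0.796 for each).

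Of the 11842 genes of the noncoding table that were at 0 in all 11 libraries, 7903 had a count in the total RNA table of the same libraries. They include Rnu1a1, a U1 gene that differs from Gm22513 by C60T, with 0 counts in the noncoding table and 116 counts over the 11 libraries in the total RNA table.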
